A study of Sus scrofa with 6 samples.

Results

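A set of 10 chemokine genes of the pig, CXCL8, AMCF-II, CXCL2, CXCL10, CXCL12, CXCL14, CXCL16, CCL2, CCL5 and CCL20, were followed from porcine embryonic fibroblasts (PEFs) to the induced pluripotent stem cells made from them (piPSCs). The 10 rows were taken by gene name from a table of 18007 genes. They had been selected on being lower in piPSCs than in PEFs in these same libraries, so that difference is described here and was not tested for them. RNA from 3 PEF lines (PEF5, PEF7 and PEF8) and from the 3 piPSC lines derived from them (piPSC5, piPSC7 and piPSC8) was sequenced, with 1 library per line. Levels are in FPKM, fragments per kilobase of transcript and 1000000 fragments, which allows genes of different length to be compared.

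The PEFs came from the ear tips of embryos at embryonic day 90, sired by a boar named Longwhite in the labels and Large White in the methods and carried by a Meishan sow. They were within 3 passages when reprogramming began. For the piPSCs, PEFs of the same number were infected with lentivirus carrying Oct4, Sox2, Klf4 and cMyc (OSKM) under a doxycycline-dependent promoter, together with its transactivator. They were then cultured in LF2i medium, and colonies were picked onto mouse embryonic fibroblast feeders. The piPSCs thus carry OSKM and were grown with feeder cells and in another medium, and these differences cannot be told apart from the change of cell state. Nothing in the labels gives how many colonies a line holds. All lines share both parents, so p-values measure the spread between embryos of 1 cross and not between unrelated pigs.

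Chemokines are small secreted proteins that bind G protein-coupled receptors on leukocytes and draw them along a gradient. Resident tissue cells such as fibroblasts make them after signals from interleukin-1, tumour necrosis factor or microbial products, largely through the transcription factor NF-kappaB. The CXC members with an ELR motif, such as CXCL8, attract neutrophils, whereas CCL2 attracts monocytes and CXCL10 attracts activated T cells. Others, such as CXCL12 and CXCL14, are often made without inflammation.

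The libraries held between 11010629 and 17836510 fragments, and the 3 piPSC libraries were the shallower ones. Whole fragments could be recovered for every gene in the table. Of 12428 genes with a mean of at least 0.5 FPKM, limma called 2070 (16.7%) lower and 2505 (20.2%) higher in piPSCs. A call needed a change of 2-fold or more on the log2(FPKM + 1) scale and an adjusted p below 0.05. The median log2 fold change of all these genes was 0.20, and it was -0.01 after rescaling each library to the median ratio. That rescaling turned the split into 2511 lower and 1879 higher. All 8 fibroblast markers of the list used here were lower in piPSCs. Of 7 pluripotency markers with a row, 2 were tested, SOX2 and LIN28B. Both were higher in each piPSC line than in any PEF line, but did not pass in the main fit. SOX2 was not called in 10 of 13 alternative fits, and LIN28B was not called in 11 of 14. Over these fits the log2 fold change ran from 0.97 to 6.59 for SOX2 and from 1.06 to 6.38 for LIN28B. SOX2 stood between 0.129 and 3.01 FPKM in piPSCs and at most at 0.0208 in PEFs (log2 fold change 1.31, limma adjusted p = 0.0626). The piPSCs carry a Sox2 transgene, and its part in the SOX2 values was not tested. LIN28B stood at 2.51, 0.281 and 8.90 FPKM in piPSC5, piPSC7 and piPSC8 and at most at 0.0367 in PEFs (1.80, limma adjusted p = 0.0667). NANOG did not exceed 0.0919 FPKM in piPSCs. CDH1, EPCAM, SALL4 and ESRRB, also untested, did not exceed 0.117 FPKM in any library. DDX3Y, a gene on the Y chromosome, had 3439 fragments in PEF8 and 4207 in piPSC8, and 0 in the libraries of lines 5 and 7, although the study describes all lines as male.

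Together the chemokine genes took 0.954%, 0.848% and 1.39% of all fragments in the libraries of PEF5, PEF7 and PEF8. In the piPSC libraries they took 0.00107%, 0.000429% and 0.00102%, which is 161, 51 and 112 fragments for lines 5, 7 and 8. CXCL8, AMCF-II, CCL2 and CCL20 made up between 77.6% and 88.3% of the chemokine fragments of each PEF library. Every PEF value lay above every piPSC value for 8 of the 10 genes, a pattern that 26.8% of the tested genes of the whole table showed. CXCL10 and CCL5 overlapped between the groups. Since these values chose the genes, nothing is read from this count.

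**Figure D1:**
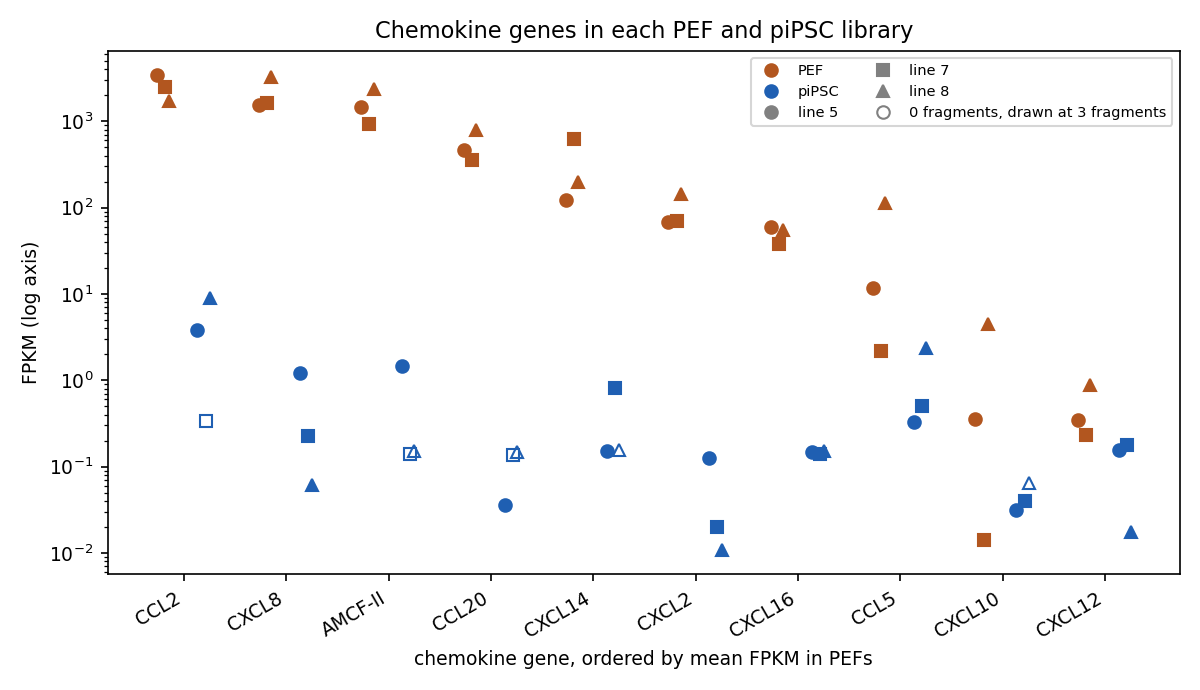
FPKM on a log axis of each chemokine gene in the 6 libraries, with PEFs in brown, piPSCs in blue and the line given by the symbol. Open symbols are libraries with 0 fragments, drawn at the level of 3 fragments. For CCL2, CXCL8 and AMCF-II the PEF points lie between 920.5 and 3472 FPKM and the piPSC points below 10. CCL5 has a PEF point among the piPSC points, and the PEF7 point of CXCL10 lies below its piPSC points as drawn.

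The stretches of DNA before the gene starts were examined for letters that NF-kappaB and other factors are known to bind. For each gene, the 250 bases before the start annotated by RefSeq on Sscrofa11.1 were read. The 4 windows of the chemokine genes on chromosome 8 are shown because they hold the same 9 letters, and that of CCL20 is added because its transcript was closest to absent in piPSCs. Capitals mark matches to the kappa-B letters GGNNNTTCC on either strand. The windows are chr8:69932396-69932645 for CXCL8, chr8:70007975-70008224 for AMCF-II, chr8:70157003-70157252 for CXCL2, chr8:71695949-71696198 for CXCL10 on the reverse strand, and chr15:129172493-129172742 for CCL20. The sequences are written from 5′ to 3′ in the direction of the gene.
CXCL8: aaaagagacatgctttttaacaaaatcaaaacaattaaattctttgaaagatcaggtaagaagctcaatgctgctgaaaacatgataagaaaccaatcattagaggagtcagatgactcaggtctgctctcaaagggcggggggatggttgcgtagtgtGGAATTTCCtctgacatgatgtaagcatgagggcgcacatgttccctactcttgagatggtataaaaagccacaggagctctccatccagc
AMCF-II: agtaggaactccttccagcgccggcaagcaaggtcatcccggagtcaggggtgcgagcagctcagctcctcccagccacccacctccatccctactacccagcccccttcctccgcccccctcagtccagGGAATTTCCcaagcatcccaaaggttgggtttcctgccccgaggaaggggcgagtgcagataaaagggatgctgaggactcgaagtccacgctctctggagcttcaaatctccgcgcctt
CXCL2: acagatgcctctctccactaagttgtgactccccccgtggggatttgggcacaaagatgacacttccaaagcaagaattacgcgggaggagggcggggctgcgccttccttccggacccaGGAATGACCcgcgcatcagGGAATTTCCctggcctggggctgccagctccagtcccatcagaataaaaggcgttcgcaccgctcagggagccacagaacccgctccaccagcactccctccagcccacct
CXCL10: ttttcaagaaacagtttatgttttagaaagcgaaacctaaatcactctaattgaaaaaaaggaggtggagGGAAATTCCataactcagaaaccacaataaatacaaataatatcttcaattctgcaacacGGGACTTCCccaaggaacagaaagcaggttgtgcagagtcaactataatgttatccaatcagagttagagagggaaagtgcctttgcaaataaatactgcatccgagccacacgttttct
CCL20: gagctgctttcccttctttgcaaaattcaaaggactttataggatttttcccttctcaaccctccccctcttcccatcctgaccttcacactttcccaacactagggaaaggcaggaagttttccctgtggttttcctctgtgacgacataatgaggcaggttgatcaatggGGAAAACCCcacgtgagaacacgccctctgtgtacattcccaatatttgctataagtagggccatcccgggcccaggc

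The kappa-B letters were found before 6 of the 10 genes, compared with 20.8% of 19556 windows of the same length before protein-coding genes. CXCL8, AMCF-II and CXCL2 held GGAATTTCC, at 91, 120 and 111 bases before the start, counted to the first base of the match. CXCL10 held GGAAATTCC, the same letters on the other strand, 180 bases before its start. This exact string, which was picked after the matches were seen, occurred in 72 of the 19556 windows (0.368%). CXCL2 and CXCL10 each had a second kappa-B match, and CCL5 and CCL20 had 1 each. No match was found before CXCL12, CXCL14, CXCL16 or CCL2, which says only that these letters are not in these windows.

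Letters for the other factors were scarcer. The AP-1 letters TGANTCA stood before CXCL8 and CXCL14, against 5.27% of all windows. The C/EBP letters TTGCNNAA stood before CXCL10, CCL5 and CCL20, against 8.22%. The interferon response letters GAAANNGAA stood before CXCL10 alone, 225 bases from its start, against 6.70% of all windows. A match in 1 of 10 genes is near that share, and nothing is read from it. TATAAA was found before CXCL8 and CCL5, 31 and 30 bases from their starts, and before CCL20, against 9.77% of all genes. In CCL20 it lay on the other strand, 215 bases from the start. All letters were searched on both strands. A match describes a sequence and does not show that a factor binds there.

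**Figure D2:**
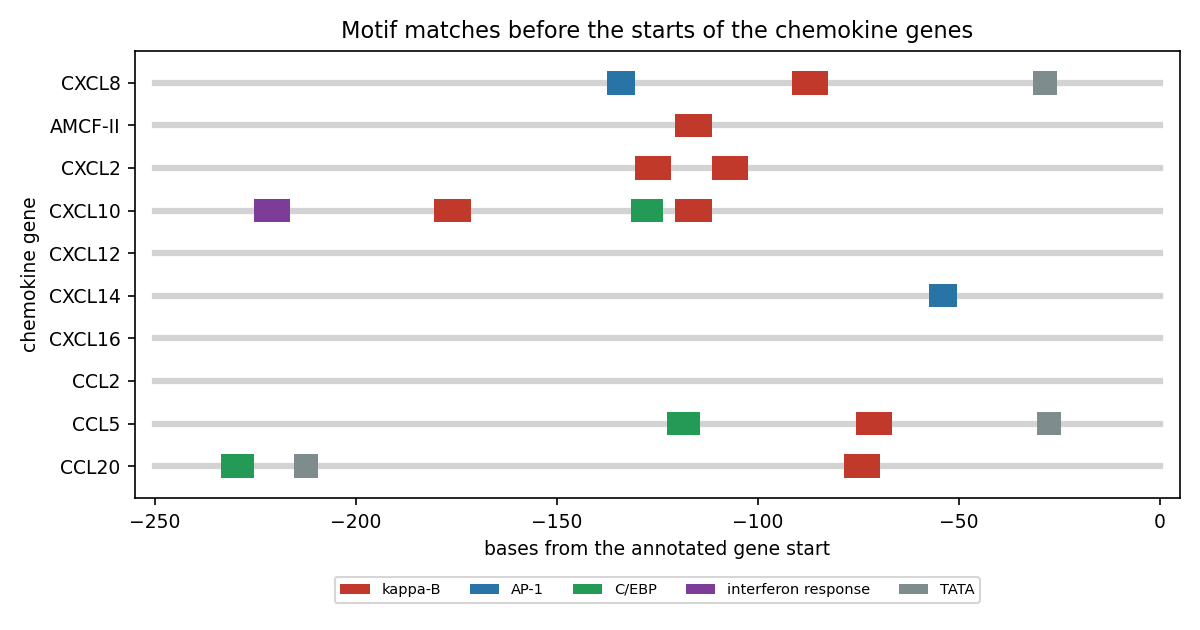
Positions of motif matches in the 250 bases before the annotated start of each chemokine gene, with the x axis in bases from the start and colours for the motifs. Kappa-B matches, in red, lie between 67 and 180 bases before the start in 6 genes, and the windows of CXCL12, CXCL16 and CCL2 are empty.

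CXCL8, the main neutrophil attractant (ENSSSCG00000008953, chr8:69932644-69935861 on Sscrofa11.1), stood at 1562 FPKM in PEF5, 1625 in PEF7 and 3288 in PEF8. It ranked 17, 20 and 6 among all genes of those libraries. In piPSC5, piPSC7 and piPSC8 it stood at 1.20, 0.226 and 0.0610 FPKM, from 27, 4 and 1 fragments. On the log2(FPKM + 1) scale the change from PEFs was -10.48 ± 0.39 (SE, n = 3 per group). Pooled over the lines, the share of fragments in PEFs was 3725 times that in piPSCs, with an exact 95% interval from 2639 to 5446 that covers counting error only. PEF8 was the highest PEF and piPSC8 the lowest piPSC, and the log2 ratio of line 8, -11.60, was the lowest of the 3 lines.

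AMCF-II, alveolar macrophage chemotactic factor II, is a neutrophil attractant first described in the pig (ENSSSCG00000008957, chr8:70007995-70010425). Its levels in PEF5, PEF7 and PEF8 were 1477, 920.5 and 2332 FPKM. In piPSC5 it had 39 fragments (1.45 FPKM), and in piPSC7 and piPSC8 it had 0. It was 1017-fold lower in piPSC5 than in PEF5, and at least 6509-fold and at least 15270.3-fold lower in lines 7 and 8, taking 0 as up to 3 fragments in that library. Its profile over the 6 libraries was the closest to that of CXCL8 among the other chemokine genes, with a Euclidean distance of 1.02 in log2(FPKM + 1). CCL20 followed at 3.67 and CCL2 at 3.79.

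CXCL2, a neutrophil attractant of the growth-regulated family, was measured on a row that spans chr8:70054756-70163415 (ENSSSCG00000008959), far more than the 1 gene RefSeq places at chr8:70157253-70159145. Its transcript length was inferred as the smallest that turns its FPKM values into whole fragments. This length, 8510 bases, lowers its FPKM in proportion. A second row without a symbol, ENSSSCG00000008954, lies inside this span and is described in the table as growth-regulated protein homolog gamma. How fragments were shared between such rows is not given in the sources used here, so the level of CXCL2 is uncertain. The row stood at 67.2, 70.7 and 145 FPKM in PEF5, PEF7 and PEF8, and at 0.125, 0.0198 and 0.0107 FPKM in the piPSC lines, from 16, 2 and 1 fragments. This gave a log2 fold change of -6.41 ± 0.31 (SE). The nested row had 293, 163 and 558 fragments in the PEFs and 0 in each piPSC line. As for CXCL8 and AMCF-II, PEF8 was the highest of the PEFs and piPSC5 of the piPSCs.

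CCL2, which attracts monocytes, was the most abundant chemokine transcript of the PEFs on average (ENSSSCG00000017723, chr12:40798116-40800026). It stood at 3472 FPKM in PEF5, 2477 in PEF7 and 1737 in PEF8, ranking 5, 9 and 15 in those libraries. Unlike the chromosome 8 genes, it was highest in PEF5 and lowest in PEF8. In the piPSCs it had 43 fragments in line 5 (3.81 FPKM), 0 in line 7 and 74 in line 8 (8.96 FPKM), the last being the highest level of any of the 10 genes in a piPSC line. The piPSC level was 911-fold lower in line 5, at least 7363-fold lower in line 7 and 194-fold lower in line 8. On the log2 scale the change was -9.41 ± 0.80 (SE).

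CCL20, the ligand of CCR6 on dendritic cells and lymphocytes, came nearest to disappearing (ENSSSCG00000016254, chr15:129172242-129176613). PEF5, PEF7 and PEF8 held 15275, 10965 and 22486 fragments (459, 351 and 795 FPKM). In the piPSCs a single fragment was found, in line 5. The pooled ratio was 37212, with an exact 95% interval from 6678 to 1469811. Lines 7 and 8 gave bounds of at least 2601-fold and at least 5449-fold. The log2 fold change on the log2(FPKM + 1) scale, -8.96 ± 0.30 (SE), is held down by the pseudocount of 1.

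CXCL14, a chemokine of skin and other epithelia and their stroma, had another order among the PEFs (ENSSSCG00000014310, chr2:137803992-137813156). PEF7 stood at 621 FPKM, against 121 in PEF5 and 199 in PEF8. The piPSCs held 4, 17 and 0 fragments, or 0.152 and 0.815 FPKM in lines 5 and 7, so line 7 was highest in both states. In proportion to its own PEF line, 0.126% was left in line 5 and 0.131% in line 7. Line 8 was at least 1279-fold lower. Its log2 fold change was -7.60 ± 0.59 (SE).

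CXCL16, made as a transmembrane protein and shed by ADAM10, differed little between lines (ENSSSCG00000017920, chr12:52143305-52152589). Its levels were 59.2, 38.3 and 54.5 FPKM in PEF5, PEF7 and PEF8, a span of 1.55-fold, close to the median span of 1.54-fold over tested genes. In the piPSC lines it stood at 0.146, 0.139 and 0.150 FPKM, from 12, 9 and 9 fragments. Each line kept between 0.248% and 0.363% of its PEF level. Among the 9 members that were fitted it had the smallest SE, at a log2 fold change of -5.47 ± 0.21.

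CCL5, which attracts T cells and monocytes, varied widely between embryos (ENSSSCG00000017705, chr12:39648598-39659121). It stood at 114 FPKM in PEF8, 11.7 in PEF5 and 2.19 in PEF7, a span of 52.1-fold. The piPSCs had 0.329, 0.5 and 2.34 FPKM in lines 5, 7 and 8, from 5, 6 and 26 fragments. PEF7 (95% counting interval 1.54 to 3.02 FPKM) therefore could not be separated from piPSC8 (1.53 to 3.43 FPKM). Each line was lower after reprogramming, by 35.6-fold, 4.39-fold and 48.8-fold, and line 8 was highest in both states. With this spread the log2 fold change was -3.15 ± 1.22 (SE), with -1.76 without PEF8 and -4.35 without PEF7.

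CXCL10, the interferon-induced ligand of CXCR3, was at a substantial level in 1 library only (ENSSSCG00000032474, chr8:71690758-71696162). PEF8 had 285 fragments (4.45 FPKM), PEF5 had 27 (0.358 FPKM) and PEF7 had 1 (0.0141 FPKM). The piPSC lines had 2, 2 and 0 fragments. In line 7 the piPSC value was thus nominally above the PEF value, at 2 fragments against 1, which the depth cannot tell apart. Its log2 fold change was -0.94 ± 0.62 (SE), and -0.20 without PEF8.

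CXCL12, the ligand of CXCR4 and ACKR3 and a well known product of stromal cells, was low in these PEFs (ENSSSCG00000034973, chr14:91516433-91552752). It stood at 0.349, 0.233 and 0.887 FPKM in PEF5, PEF7 and PEF8, from 32, 20 and 69 fragments, and at 0.155, 0.180 and 0.0177 FPKM in the piPSCs. With a mean of 0.304 FPKM it was the only member under the 0.5 FPKM filter, and CXCL10, at 0.815 FPKM, was the lowest that passed. Lines 5, 7 and 8 kept 44.4%, 77.3% and 1.99% of their PEF level. The pooled ratio was 3.85, with an exact 95% interval from 2.47 to 6.24.

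The PEF levels in descending order of the mean were CCL2 (2562 ± 871 FPKM, SD, n = 3), CXCL8 (2158 ± 979), AMCF-II (1577 ± 711), CCL20 (535 ± 232), CXCL14 (313 ± 269), CXCL2 (94.1 ± 43.7), CXCL16 (50.6 ± 11.0), CCL5 (42.7 ± 62.1), CXCL10 (1.61 ± 2.47) and CXCL12 (0.490 ± 0.349). Only AMCF-II over CCL20 and CXCL2 over CXCL16 were neighbours in this order whose lines did not overlap. The other neighbours overlapped, although CXCL8 lay above AMCF-II, CXCL14 above CXCL2 and CCL5 above CXCL10 in each of the 3 lines. In the PEFs, 7 of the 10 genes were highest in PEF8, which was the highest PEF line for 36.8% of all tested genes. CCL2 and CXCL16 were highest in PEF5 and CXCL14 in PEF7. The DDX3Y fragments named above were found in line 8 only, and with 1 embryo that has them and 2 that do not, what goes with DDX3Y and other differences between embryos cannot be told apart.

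What remained in the piPSCs was set beside the remaining fibroblast transcripts, because bulk RNA cannot tell fewer expressing cells from less RNA per cell. Line 5 held the most fragments of CXCL8, AMCF-II and CXCL2, and it also kept the most of 7 of the 8 fibroblast markers, among them 3.59% of COL1A1, against 0.142% in line 7 and 0.261% in line 8. COL3A1 was the exception, with 19.0%, 36.8% and 7.64%. In line 5 the 8 markers kept between 2.22% and 19.0% of their PEF level. CCL5 and CXCL10 lay within that range at 2.81% and 8.78%, and CXCL12 lay above it at 44.4%. The remaining chemokine genes kept between 0.00776% and 0.248%, below each marker. The chemokine genes were chosen on being lower in piPSCs, so nothing is read from this order. Lines 7 and 8 were mixed as well. CCL2 kept 0.516% in line 8, above 5 of the markers such as DCN at 0.438%, and CXCL16 kept 0.363% in line 7, above COL1A1, LUM and COL1A2. CCL2 and CCL5 had their highest piPSC level in line 8. The part of remaining fibroblasts and of feeder RNA in these values was not tested.

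**Figure D3:**
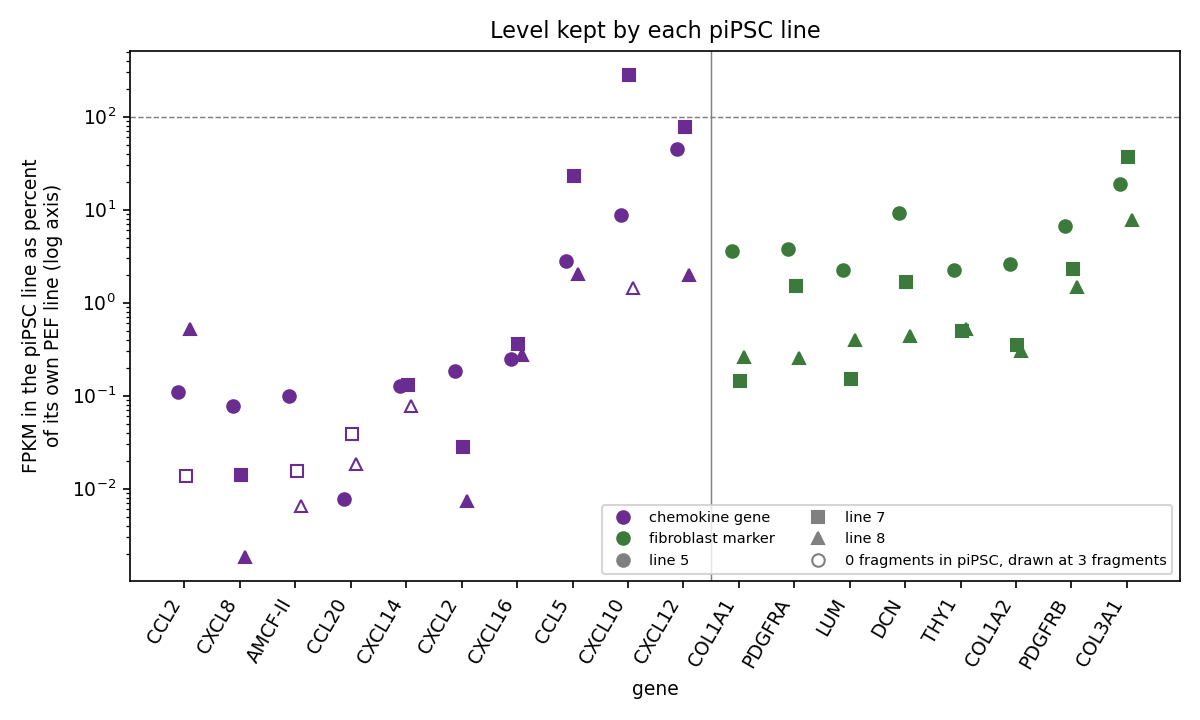
FPKM of each piPSC line as a percent of its own PEF line, on a log axis, for the chemokine genes (purple) and 8 fibroblast markers (green). Open symbols had 0 fragments in the piPSC library and are drawn at 3 fragments, and the dashed line is 100%. In line 5, 7 chemokine genes lie below 0.25% and the markers above 2%, with CCL5 and CXCL10 among the markers and CXCL12 above them. CXCL10 in line 7 is drawn above 100% from 2 fragments against 1.

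Apart from CD14, markers of other cells that make or carry chemokines were low in the PEFs. Of 9 leukocyte markers 7 were matched, and PTPRC and CD3E were not. The 7 summed to between 12.7 and 25.7 FPKM in PEFs and between 1.81 and 3.44 in piPSCs. Most of the PEF sum was CD14, the lipopolysaccharide co-receptor, at 9.20, 21.9 and 13.1 FPKM in PEF5, PEF7 and PEF8. CD14 was called lower in piPSCs (log2 fold change -3.64, limma adjusted p = 0.000435). SPI1 stood at 2.53, 1.62 and 3.49 FPKM in PEFs, TYROBP reached 1.30 and LAPTM5 1.10 FPKM there, and CSF1R, ITGAM and CD79A did not exceed 0.698 FPKM in any library. PECAM1 of endothelium reached 2.57 FPKM in PEF8, while CDH5 and KDR, which define endothelium, did not exceed 0.0111 FPKM. Endothelial markers summed to at most 2.71 FPKM and the keratinocyte markers KRT5, KRT14 and TP63 to at most 0.5 FPKM in PEFs.

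Most of the chemokine receptors that could be measured were low in both cell states. Of 23 receptor genes, 17 had a row and 15 of those fell under the filter, with no value above 0.926 FPKM. CXCR4, the signalling receptor of CXCL12, reached 0.396 FPKM at most, and CXCR3, the receptor of CXCL10, had 0 in all PEF lines. CCR2 and CCR6, the receptors of CCL2 and CCL20, had no row by symbol and were not analysed here. Rows described as CXCR1 and CXCR2, the receptors of CXCL8, held at most 2 fragments. ACKR3, a scavenger that removes CXCL12, was the exception at 224, 284 and 151 FPKM in PEF5, PEF7 and PEF8. It fell to 4.74, 25.3 and 0.581 FPKM in the piPSCs (log2 fold change -5.10 ± 0.94, SE, limma adjusted p = 0.00514). ACKR4, which removes CCL chemokines such as CCL19, stood at 0.229, 1.22 and 4.45 FPKM in PEFs and did not pass the test (-1.25 ± 0.53, limma adjusted p = 0.0876).

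Of 33 other chemokines looked for by symbol, 12 had a row and 2 were tested. Beside these, the nested growth-regulated row ENSSSCG00000008954 fell from 24.4, 14.5 and 54.7 FPKM in PEFs to 0 in each piPSC line (limma adjusted p = 0.000515). CX3CL1, the membrane-bound ligand of CX3CR1, fell from 1.48, 1.04 and 3.16 FPKM to 0.130, 0.212 and 0 FPKM (log2 fold change -1.31 ± 0.32, SE, limma adjusted p = 0.0143). CCL19 stood at 0.0740, 0.237 and 2.53 FPKM in PEFs and 0.0877, 0.111 and 0.839 in piPSCs and did not pass (-0.36, limma adjusted p = 0.575), and its sign turned without PEF8 (0.18). The 10 untested ones did not exceed 1.38 FPKM, the value of CCL11 in PEF5.

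Among genes listed for the induction of chemokines, which include the inhibitors NFKBIA and TNFAIP3, more than the background share fell. Of 29 listed, from the interleukin-1, tumour necrosis factor and Toll-like receptor pathways to the factors they act through, 28 had a row, 26 were tested, 15 fell, none rose and 11 did not pass, against the 16.7% lower among all tested genes. Their median log2 fold change was -1.95, beside 0.20 for all. IL1A, an alarm cytokine that induces CXCL8, fell the furthest of the list, from 508, 685 and 661 FPKM to 0.0735, 0.0465 and 0 FPKM (-9.21 ± 0.17, SE, limma adjusted p = 5.31e-06). TNF and IFNB1 were not tested, with no value above 0.252 FPKM. Of the receptors of the inducing signals, IL1R1 fell with a log2 fold change of -4.58, TLR4 with -3.39 and TLR2 with -2.77. The co-receptor IL1RAP fell with -2.34 and TNFRSF1A with -2.03. The limma adjusted p of these receptors was between 0.000296 and 0.00406. TLR3 stood at 2.69, 2.77 and 7.82 FPKM in PEFs and 0.561, 1.71 and 5.31 in piPSCs. It did not pass (-0.73, limma adjusted p = 0.323).

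The NF-kappaB family split. RELA, the main activating subunit, stood at 25.6, 26.5 and 26.9 FPKM in PEFs and 18.8, 18.0 and 20.4 in piPSCs, which is less than 2-fold lower (log2 fold change -0.45, limma adjusted p = 0.0299). NFKB1 did not pass (-0.45, limma adjusted p = 0.217). RELB and NFKB2, of the alternative pathway, fell, with log2 fold changes of -3.61 and -2.14. So did NFKBIA and TNFAIP3, inhibitors that NF-kappaB itself induces, at -4.74 and -4.14, and the cofactor NFKBIZ, at -2.40. NFKBIA stood at 174, 142 and 201 FPKM in PEFs and 6.85, 5.35 and 4.32 in piPSCs. The kinase subunits IKBKB and CHUK stood at log2 fold changes of 0.37 and 0.74, and IKBKG at -0.99. All 3 stayed under a 2-fold change, but IKBKG (limma adjusted p = 0.00310) was called lower in 6 of the alternative fits, at up to -1.39 with each library rescaled to a sum of 1000000.

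Of the other factors, CEBPB fell with a log2 fold change of -3.54, FOSL1 with -2.09 and IRF1 with -1.88. The adaptor MYD88 fell with -1.27, whereas IRAK1 (0.11), IRAK4 (-0.27) and TRAF6 (0.29) of the list did not pass. The call of MYD88 was lost without PEF8 (-0.94, limma adjusted p = 0.0272) and without piPSC5 (-1.20, limma adjusted p = 0.0578). JUN and FOS, which form AP-1, did not pass. In the piPSCs both were highest in line 7, JUN at 523 FPKM and FOS at 220.1 FPKM, and FOS was also highest in PEF7 among the PEFs, at 123 FPKM.

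**Figure D4:**
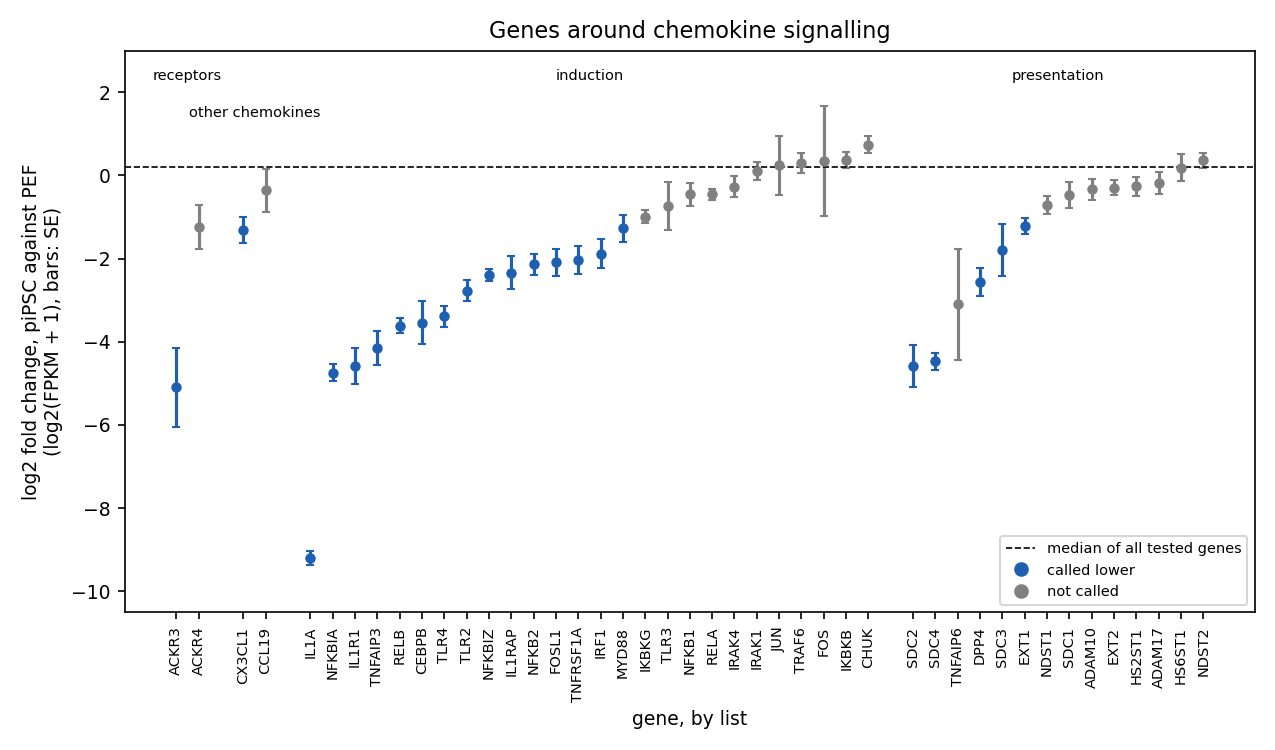
Log2 fold change of piPSCs against PEFs, with SE bars, for the tested receptors, other chemokines, induction genes and presentation genes, with called genes in blue. The dashed line is the median of all tested genes at 0.20. In all, 15 of 26 induction genes are blue, from IL1A at -9.21 to MYD88 at -1.27, and no gene is called higher.

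Chemokines act on cell surfaces bound to heparan sulfate, and proteases trim or shed them. Of 14 genes for these steps, all were tested, 5 fell and none rose, beside 16.7% lower and 20.2% higher among all tested genes. Their median log2 fold change was -0.59. The syndecans SDC2 and SDC4, core proteins of heparan sulfate, fell, with log2 fold changes of -4.59 and -4.47, while SDC1 did not pass (-0.47, limma adjusted p = 0.254). SDC4 stood at 106, 111 and 91.9 FPKM in PEFs and 3.07, 4.99 and 3.18 in piPSCs. DPP4, which cuts the amino terminus of CXCL10 and CCL5, fell at -2.57 and EXT1, a heparan sulfate polymerase, at -1.22. SDC3 fell at -1.79 with an adjusted p of 0.0470 in limma, and its call was lost in 8 of 14 alternatives. These were a pseudocount of 0.1 (adjusted p in limma 0.0502), no filter (0.0823), no trend (0.05), voom (0.0770) and leaving out PEF5 (0.141), PEF7 (0.130), piPSC7 (0.106) or piPSC8 (0.121).

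The sheddase ADAM10 stood at 16.8, 14.1 and 18.3 FPKM in PEFs and 14.9, 8.82 and 15.6 in piPSCs and did not pass (-0.33, limma adjusted p = 0.285). TNFAIP6, which binds CXCL8, stood at 25.8, 13.9 and 77.0 FPKM in PEFs and 0.618, 0 and 29.9 in piPSCs. It did not pass in the unpaired fit (-3.10, limma adjusted p = 0.0907) but did with the line as a replicate block (limma adjusted p = 0.0165) and without piPSC8 (-4.63, limma adjusted p = 0.00548). All these lists were drawn up with results of these data known and do not bear on the direction independently.

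CXCL8, AMCF-II and CXCL2 lie close together on chromosome 8, whereas CXCL10 starts 1758 kb from CXCL8. CXCL8 and AMCF-II start 75.4 kb apart, and AMCF-II and the CXCL2 row 46.8 kb apart. RefSeq places the start of CXCL2 further from AMCF-II, at chr8:70157253. Further along lie MTHFD2L, a mitochondrial folate enzyme, and the epidermal growth factor family genes EPGN, EREG and AREG. EREG fell from 229.6, 199 and 470.2 FPKM in PEF5, PEF7 and PEF8 to 1.10, 0.877 and 0.0618 FPKM (log2 fold change -7.44 ± 0.40, SE, limma adjusted p = 0.000145). AREG fell from 179.5, 124 and 227 FPKM to 1.10, 0.0164 and 0 FPKM (-7.07 ± 0.36, limma adjusted p = 0.000137). Like the chemokines of the cluster, both were highest in PEF8 and, among the piPSCs, in piPSC5.

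Between them, MTHFD2L stood at 0.752, 1.05 and 0.818 FPKM in PEFs and 1.17, 0.955 and 0.281 in piPSCs (-0.09, limma adjusted p = 0.799). EPGN stood at 1.01, 0.690 and 1.12 FPKM in PEFs and 0.148, 0.0170 and 0.0367 in piPSCs. With the pseudocount of 1 this was less than a 2-fold change (-0.86 ± 0.23, limma adjusted p = 0.0190). EPGN was called lower with a pseudocount of 0.1 (-2.69), with voom (-4.00) and after rescaling to a sum of 1000000 (-1.68). The stretch thus held high PEF genes on either side of MTHFD2L, which was low in both states. No kappa-B letters were found in the windows before EREG and AREG, and both held TATAAA.

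**Figure D5:**
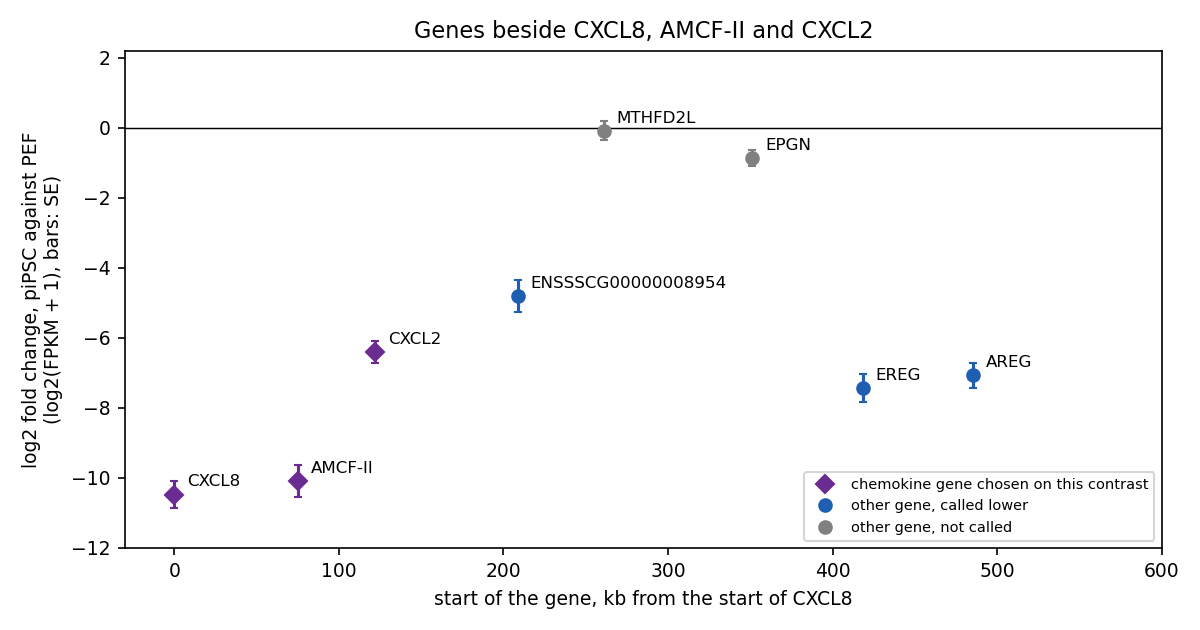
Log2 fold change of piPSCs against PEFs, with SE bars, by the distance of each gene's start from that of CXCL8 in kb. The purple chemokine genes were chosen on this contrast, blue genes were called lower and grey genes were not called. MTHFD2L lies near 0 between CXCL2 at -6.41 and EREG at -7.44.

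Around the other chemokine genes the neighbours went both ways. Of 108 rows whose start lies within 500 kb of a chemokine gene, 60 were tested, and 13 (21.7%) fell and 8 (13.3%) rose, against 16.7% and 20.2% of all tested genes. Among the 13 is ENSSSCG00000008954, the growth-regulated row nested in that of CXCL2, so that fragments may be shared. Without the stretch from CXCL8 to AREG, which holds that row, 10 of 55 fell and 8 rose. Over all 60, rescaling to the median ratio gave 16 that fell and 5 that rose. Rescaling to a sum of 1000000 gave 19 that fell and 5 that rose. These rescalings also raised the count of all tested genes that fell, to 2511 and 2815. Without PEF8, 11 neighbours fell and 5 rose. Beside CXCL10, CDKL2, NUP54 and SDAD1 rose, with log2 fold changes of 3.07, 1.75 and 1.52, while ODAPH fell at -1.45, with limma adjusted p between 0.00244 and 0.00666. NAAA rose by 1.37 (limma adjusted p = 0.0354), a call lost in 8 of 14 alternatives. In limma, the adjusted p was 0.0832 with the replicate block, 0.0671 with no filter, 0.0701 and 0.0670 after the rescalings, and between 0.0928 and 0.109 without PEF5, PEF8, piPSC5 or piPSC8. Beside CXCL16, which had the most neighbours, 6 of 25 tested fell and 1 rose. ALOX15 (-2.11), GABARAP (-1.91), SLC16A13 (-1.87), ENO3 and PLD2 (both -1.05) fell and ARRB2 (1.46) rose. The sixth that fell was ZMYND15, whose start lies 3.77 kb from that of CXCL16 and whose row overlaps that of CXCL16, so that fragments may be shared (-1.66 ± 0.30, limma adjusted p = 0.00496). Beside CCL5, NLE1 rose (1.96) and RFFL fell (-1.95), and beside CXCL14, H2AFY rose (1.10) and TGFBI fell (-2.38). RASSF4 rose beside CXCL12 (1.04). The one tested neighbour of CCL2, TMEM132E, fell at -3.75, and none of the 3 tested near CCL20 passed.

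Outside the chemokines, the genes whose levels over the 6 libraries were most like those of CXCL8 were sought among all tested genes by Euclidean distance in log2(FPKM + 1). They were IL11 at a distance of 3.20, IL1A at 3.26, FMOD at 3.48, a gene listed as ENSSSCG00000037358 at 3.62 and THBS1 at 4.58. The table describes ENSSSCG00000037358 as serum amyloid A-3, an acute-phase protein, and it stood at 1322, 483 and 414 FPKM in the PEFs and at most 0.238 FPKM in the piPSCs. IL11, a cytokine of the interleukin-6 family, stood at 1711, 2509 and 420.3 FPKM in PEF5, PEF7 and PEF8, lowest in the line where CXCL8 was highest. IL1A is also on the list of induction genes. This likeness is a description over 6 libraries, which it shares with the choice of CXCL8.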

How the data were processed

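Poly-A RNA of 3 PEF and 3 piPSC lines was sequenced with 150 bp paired reads. The authors deposited FPKM values per gene. HISAT2 2.1.0, HTSeq 0.6.0 and Bowtie2 2.2.3 and the build Sscrofa11.1 are named in the submitters' processing notes, and the annotation release, the counting mode and the use of strand are not given in the sources used here. Each FPKM value was a multiple of 1 fragment, whole within 0.0001 fragments or, for large counts, 5e-08 of the count, and fragments were recovered for 18007 genes (100.0%), of which 902 were named from a reference table and 2473 by identifier only.

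Groups were compared with limma 3.58.1 in R 4.3.3 on log2(FPKM + 1) with a trend, for 12428 genes with a mean of at least 0.5 FPKM, two-sided and with Benjamini-Hochberg adjustment, after a test on simulated data. A call needed an adjusted p below 0.05 and a change of 2-fold or more. The statistics of the study are unpaired, and so was this fit. Each piPSC line came from the PEF line of its number, so the libraries are paired by embryo. After removing group means, gene values correlated at 0.0921, 0.0946 and 0.08 within lines and at between -0.121 and 0.0553 across lines. Fragment intervals are exact Poisson or binomial intervals at 95%, a count of 0 was taken as up to 3 fragments, and both cover counting error only.

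The members, the gene lists and the motifs were chosen with earlier results of these data known. All members are named, as are the receptors, other chemokines, induction and presentation genes and neighbours that passed, and the 5 genes nearest to CXCL8. Other genes of a list could be named where a group averaged at least 1 FPKM, and those below it were named as markers or as receptors or ligands of members. Promoter windows were read with pysam 0.24.0 from the RefSeq annotation of Sscrofa11.1, where all 10 members were matched by symbol. Alternatives tried were the line as replicate block, 0.1 as the pseudocount, no filter, a mean FPKM of at least 1, rescaling to the median ratio or to a sum of 1000000, no trend, voom on recovered fragments, and leaving out each library. Chromatin and methylation data were not analysed here. A gene of the induction list is not reported here and was left out of its counts.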

Additional observations from a re-analysis of the deposited data

How the results depend on the processing

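The count of receptors that fell was 1, and 2 with a pseudocount of 0.1 or with voom, where ACKR4 was added. Neighbours that rose numbered 8, and 5 after rescaling to the median ratio or to a sum of 1000000. Those that fell numbered 13, and 16 and 19 after these rescalings. The median log2 fold change of the tested chemokine genes was -7.60, and it was -9.76 at a pseudocount of 0.1, -8.28 among genes averaging at least 1 FPKM, -8.83 with a sum of 1000000 and -10.93 with voom. The pseudocount of 1 sets much of this size, since piPSC levels lie near or below it.

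With a single library left out, the median ran from -8.11 to -6.93, the latter without PEF7. The median span among the PEF lines, 2.40-fold, ran from 1.52 (without PEF8) to 2.40. With a PEF line left out, this span covers fewer lines and can only stay or fall. Over all genes, between 1836 and 2066 fell and between 2213 and 2623 rose. Receptors that fell ran from 1 to 2, the latter without PEF5, other chemokines stayed at 1, induction genes ran from 14 to 16, presentation genes from 4 to 5, neighbours that fell from 10 to 14 and neighbours that rose from 5 to 8, with 5 without PEF8.

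When lines were paired by a replicate block, 2023 genes fell and 2462 rose, with 1 receptor, 1 other chemokine, 15 induction genes, 6 presentation genes and 13 neighbours that fell and 7 neighbours that rose. Besides TNFAIP6 and NAAA, it changed no call of a list gene or neighbour. Of the calls of single genes, those of ENO3, PLD2 and TGFBI were lost only on leaving out a library, and those of H2AFY and RASSF4 also under both rescalings. ENO3 had an adjusted p of 0.0503 without PEF7, with -0.99 without PEF8 and -0.84 without piPSC8 as its log2 fold changes. PLD2 stood at -0.99 and -0.83 without the same PEF8 and piPSC8. TGFBI had adjusted p of 0.0721 without PEF5, 0.0715 without PEF7 and 0.0521 without piPSC8. H2AFY stood at 0.92 without PEF8, and RASSF4 at 0.91 without PEF8 and 0.92 without piPSC5. No alternative reversed the direction of a call or of the log2 fold change of one of the 9 members tested.

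Depth limits the piPSC values: CCL20 and CXCL10 rest on 1 and 4 fragments over 3 libraries, and their differences between piPSC lines were not detectable at this depth. With 1 library per line, differences between embryos have no replicate.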
